A study of Mus musculus with 36 samples.

Results

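The Myc family genes Myc, Mycn and Mycl1 (the gene now named Mycl) and their partners Max and Mnt were followed over 9 days of mouse embryonic stem cell (mESC) differentiation. Members were chosen by name, as rows of the deposited expression table, and all 5 were found, each on a single row among 25965 genes. All 5 passed the filter on low values that left 14612 genes for testing.

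MYC, MYCN and MYCL are basic helix-loop-helix leucine zipper transcription factors. Each binds DNA as a heterodimer with MAX, most tightly at the E-box CACGTG, and activates genes of ribosome production, nucleotide and polyamine synthesis and the cell cycle. MNT and the MXD proteins compete for MAX and for the same sites, and repress transcription through the SIN3 corepressor. In mouse embryonic stem cells MYC activity is low in medium with 2i, and loss of both Myc and Mycn places the cells in a dormant state.

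The cells were Xmas mESCs, female C57/Bl6 lines whose X chromosomes carry GFP and mCherry reporters at Hprt, each on a different homologue. They were grown in 2i with LIF (day 0), weaned into serum medium (DME HiHi) without LIF, and harvested as bulk cultures each day up to day 8. Each day holds 4 libraries, which are X14 double (replicate 1), X14 single (replicate 2), X18 double (replicate 3) and X18 single (replicate 4). X14 and X18 are lines, while double and single stand in the library names without a definition and serve here only as names. Each number is taken here as a single culture seen on 9 days, which the labels do not state. The 4 libraries of a day differ in line and label. In the fits, p-values between days measure the spread among libraries of the same day, pooled over days. Those for label and line measure the spread among libraries left after day, line and label. Libraries of a culture count there as replicates although they are not independent, so the spread among cultures of a label is not measured.

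Reads in genes ranged from 612740 (day 5 replicate 1) to 2445826 per library, and 3 reads correspond to 1.04 to 3.90 RPM (reads per 1000000 reads of the library, not corrected for gene length). Counting intervals and floors cover counting error only. The balance of X-linked over autosomal genes, on a log2 scale relative to day 0, was -0.02 to 0.57 in the 16 double libraries of days 1 to 8 and -0.63 to -0.21 in the 16 single libraries. On day 0 the library labelled X14 double stood at -0.78 and the library labelled X14 single at 0.51, the opposite of their labels. Where a call of a member or a list count against day 0 changes without these 2 libraries, both are given. Naive markers were present as the label mESC implies: Pou5f1, Nanog, Zfp42, Esrrb, Tfcp2l1 and Klf4 all had reads on every day, with a sum of 3734 to 4495 RPM on day 0 and 330 to 669 RPM on day 8. Primed markers (Fgf5, Otx2 and Dnmt3b) summed to a mean of 54.3 RPM on day 0, 2172 RPM on day 4 and 368 RPM on day 8.

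The loci are given in mm10, counted from 1, as in the deposited table. Myc lies on chr15:61985391-61990374 on the plus strand, Mycn on chr12:12936096-12941914 on the minus strand and Mycl1 on chr4:122995652-123002485 on the plus strand. Max lies on chr12:76937269-76962248 on the minus strand and Mnt on chr11:74830920-74845725 on the plus strand. No other gene of the table overlaps any of the 5.

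The promoters of the partners are shown because MAX-containing dimers bind CACGTG and both of these windows hold it. The sequences are from RefSeq (GRCm38.p6), from 250 bases before to 50 bases after the gene start, read 5′ to 3′ on the strand of the gene, with CACGTG in capitals. The Max window is chr12:76962199-76962498 on the minus strand, with the motif starting at position -3 from the gene start. The Mnt window is chr11:74830674-74830973 on the plus strand, with the motif at -123.
Max: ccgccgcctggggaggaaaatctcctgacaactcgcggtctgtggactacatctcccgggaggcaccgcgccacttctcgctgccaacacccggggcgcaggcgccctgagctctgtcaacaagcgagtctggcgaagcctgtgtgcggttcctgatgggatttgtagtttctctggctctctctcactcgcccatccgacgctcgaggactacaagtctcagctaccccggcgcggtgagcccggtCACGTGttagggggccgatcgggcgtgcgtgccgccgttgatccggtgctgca
Mnt: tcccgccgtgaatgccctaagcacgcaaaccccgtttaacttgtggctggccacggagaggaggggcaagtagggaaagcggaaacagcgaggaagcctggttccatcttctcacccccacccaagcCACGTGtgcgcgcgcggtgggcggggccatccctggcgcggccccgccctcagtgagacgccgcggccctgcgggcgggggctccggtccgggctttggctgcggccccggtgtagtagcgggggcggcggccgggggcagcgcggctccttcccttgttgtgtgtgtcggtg

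CACGTG reads the same on both strands, so a single search covers both. It was found in 2 of the 4 member promoters in the RefSeq table (Max and Mnt, not Mycn or Mycl). It was present for 8.093% of all 27025 genes with a promoter there, a gene being counted when any of its windows held the motif. A match is a description of the sequence and not of binding, which was not measured.

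The 3 MYC paralogues followed different courses. Myc, the founding member and the main growth regulator of most dividing cells, was almost without reads in 2i and rose in serum. Mycn, the paralogue that is most abundant in the early embryo, rose to a peak on day 3 and fell below its starting level on day 5. Mycl1, the paralogue with the weakest growth activity, rose late and less.

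**Figure D1:**
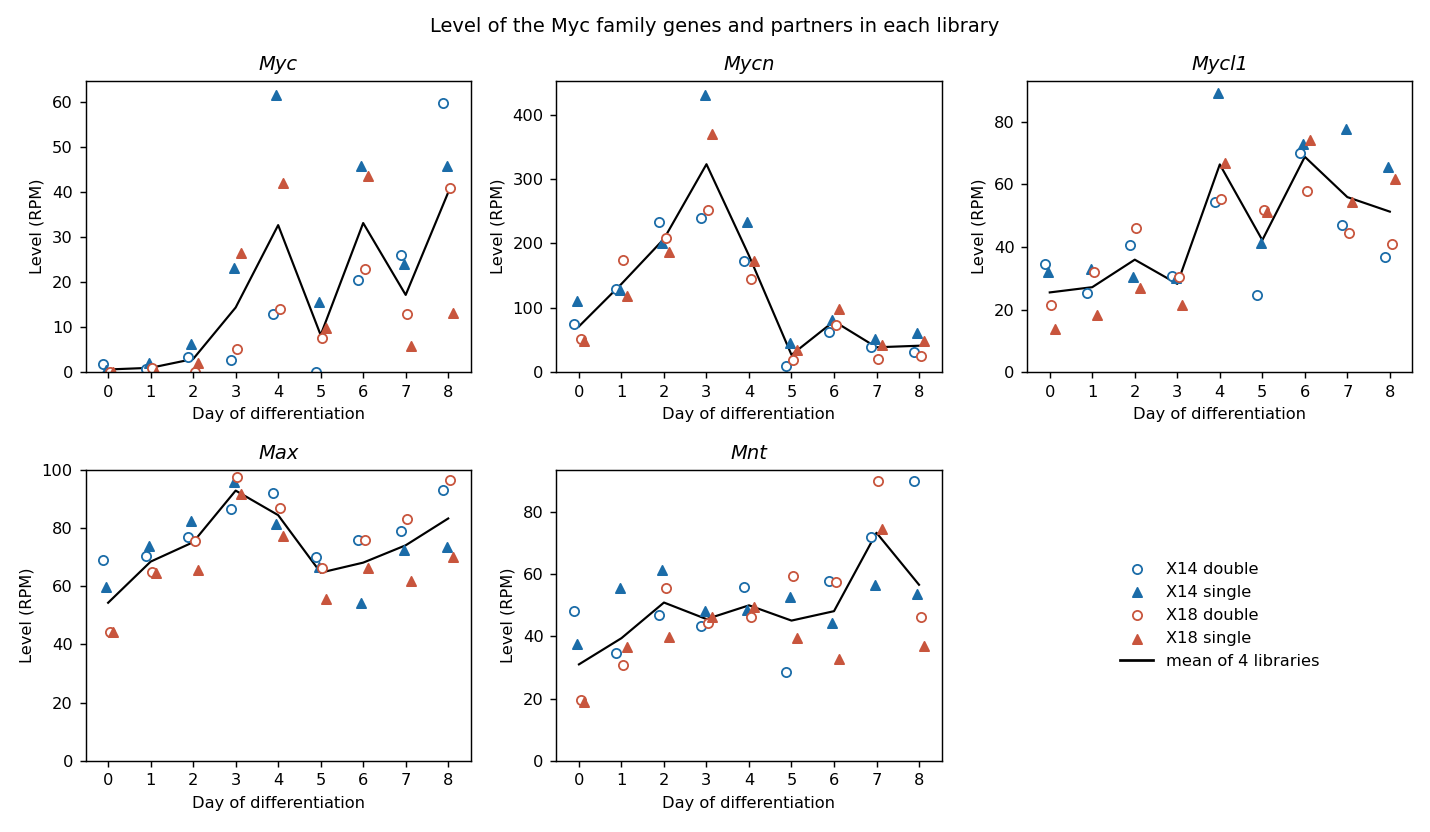
Level of each gene in RPM (vertical axis, linear, from 0) by day of differentiation (horizontal axis) in the 36 libraries. Open circles are double and filled triangles single libraries, blue is X14 and red X18, and the line joins the means of 4 libraries. Mycn peaks on day 3 at a mean of 323 RPM, while Myc stays under 7 RPM in every library up to day 2.

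Myc had 4, 1, 0 and 0 reads in replicates 1 to 4 on day 0, or 1.85, 0.463, 0 and 0 RPM. On day 3 the 4 libraries held 2.67, 23.1, 5.19 and 26.3 RPM and on day 4 they held 12.8, 61.5, 14.1 and 42.0 RPM. Every library of days 3 and 4 lay above every library of day 0, with the single libraries of both lines above the double ones. On day 8 the values were 59.7, 45.7, 40.9 and 13.1 RPM, again all above day 0, with X18 single the lowest.

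Myc was called higher than on day 0 on days 3 to 8 (limma, Benjamini-Hochberg adjusted p under 0.05 over all genes tested and a log2 fold change of at least 1). Its log2 fold change was 3.44 ± 0.74 (SE, n = 4 libraries a day, adjusted p = 0.00223, limma) on day 3 and without replicate 4 that change was 2.88 and not called (0.0682). It was 4.89 (6.38e-06, limma) on day 4 and, by day 8, 5.30 (5.39e-07). These folds depend on the 0.9 read that the deposited values carry in place of 0. From reads pooled over 4 libraries, 5 on day 0 and 267 on day 8, the ratio was 57.8 with a 95% counting interval of 24.5 to 179 (exact binomial).

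Day 5 interrupted the rise of Myc, with values of 0, 15.6, 7.49 and 9.73 RPM. The value of 0 belonged to replicate 1, the shallowest library, in which 3 reads are 3.90 RPM. All 4 cultures were lower on day 5 than on day 4 and all 4 were higher again on day 6, at 20.4, 45.7, 22.8 and 43.4 RPM. The step from day 4 to day 5 was called lower (log2 fold change -2.11, adjusted p = 0.048, limma) and that from day 5 to day 6 higher (2.36, 0.0299). Without day 5 replicate 1 neither step was called, with log2 fold changes of -1.32 and 1.57. The primed markers were also lower on day 5, with mean sums of 2172, 676 and 962 RPM on days 4, 5 and 6. On these days Dnmt3b, most of the sum, held 1849, 562 and 755 RPM, and Fgf5 53.0, 5.02 and 101 RPM. Otx2 held 270, 109 and 105 RPM, with no return on day 6. The part of the primed markers in the course of Myc and Mycn was not tested.

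Mycn stood at 74.5, 110, 51.4 and 47.8 RPM in replicates 1 to 4 on day 0. It reached 240, 431, 251.2 and 369 RPM on day 3, and on each of days 1 to 4 all 4 libraries lay above the whole range of day 0. On day 5 it held 9.10, 44.4, 18.7 and 34.7 RPM, all below day 0. On day 8 the values of 30.6, 61.2, 24.4 and 47.6 RPM overlapped those of day 0, although each culture was lower than it had been on day 0.

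Mycn was called higher than on day 0 on days 2, 3 and 4, with log2 fold changes of 1.62, 2.22 and 1.41 (adjusted p = 0.00778, 4.17e-05 and 0.0027, limma). It was called lower on day 5, at -1.56 (adjusted p = 0.000586, limma). Without replicate 4 the change on day 4 was 1.26 with an adjusted p of 0.05, and was not called. The step from day 4 to day 5 was a fall by 2.98 on the log2 scale (adjusted p = 4.45e-07, limma), in all 4 cultures, and was followed by a rise of 1.78 to day 6 (0.000581). From day 4 to day 8 Mycn fell by 2.21 (adjusted p = 6.6e-06, limma). Without the X14 libraries of day 0 Mycn was also called higher on day 1, at 1.45. On day 7 it was not called (-0.88) but was under 75th percentile scaling (-1.06) and quantile normalization (-1.10), and was at -0.44 without the X14 libraries of day 0. The difference of day 8 from day 0 was -0.80 ± 0.35 (SE, adjusted p = 0.0561, limma), which did not pass. It was -0.37 without the X14 libraries of day 0 and was called lower at -1.01 and -1.04 under 75th percentile scaling and quantile normalization.

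Mycl1 held 34.7, 31.95, 21.6 and 13.7 RPM on day 0 and 30.7, 30.2, 30.5 and 21.5 RPM on day 3. On day 4 it stood at 54.4, 89.3, 55.2 and 66.7 RPM, above every library of days 0 and 3. Compared with day 0 it was called higher at 4 times, with log2 fold changes of 1.44, 1.52, 1.19 and 1.06 (adjusted p = 0.000248, 5.83e-05, 0.000872 and 0.00269, limma) for days 4, 6, 7 and 8. The step from day 3 to day 4 alone was 1.22 (adjusted p = 0.00528, limma). On day 8, at 36.9, 65.6, 40.9 and 61.9 RPM, all libraries lay above day 0, but the log2 fold change was 0.85 under 75th percentile scaling and 0.66 under quantile normalization, below the limit for a call. Without replicate 4 it was 0.68, with an adjusted p of 0.0801. On day 7 quantile normalization gave 0.85, also below it. Without the X14 libraries of day 0 Mycl1 was called on days 2 (1.03) and 5 (1.24) as well.

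Max, the obligate partner of all 3 paralogues, moved least. It held 68.9, 59.7, 44.2 and 44.4 RPM on day 0 and 86.7, 95.7, 97.4 and 91.7 RPM on day 3, with no overlap between the days. On day 8 it stood at 92.9, 73.4, 96.6 and 70.2 RPM, also above day 0 in every library. Its log2 fold changes of 0.80, 0.66 and 0.63 on days 3, 4 and 8 had adjusted p of 0.000693, 0.00178 and 0.00124 (limma) but stayed under 2-fold, so Max was not called on any day. Without the X14 libraries of day 0 the change on day 3 was 1.07 and passed.

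Mnt, the widely expressed repressor that competes with the MYC proteins for MAX, held 48.1, 37.5, 19.5 and 18.8 RPM on day 0. On day 7 it reached 72.0, 56.6, 90.0 and 74.6 RPM, all above day 0, and this was its only call (log2 fold change 1.34 ± 0.28, SE, adjusted p = 0.000247, limma). On day 8 it stood at 89.8, 53.4, 46.1 and 36.9 RPM, overlapping day 0, with 0.91 (0.00931) under the fold limit. On day 0 the X14 libraries held more Mnt than the X18 libraries. Without them Mnt was called higher on each of days 1 to 8, with values of 1.38 and 1.48 for days 4 and 8.

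**Figure D2:**
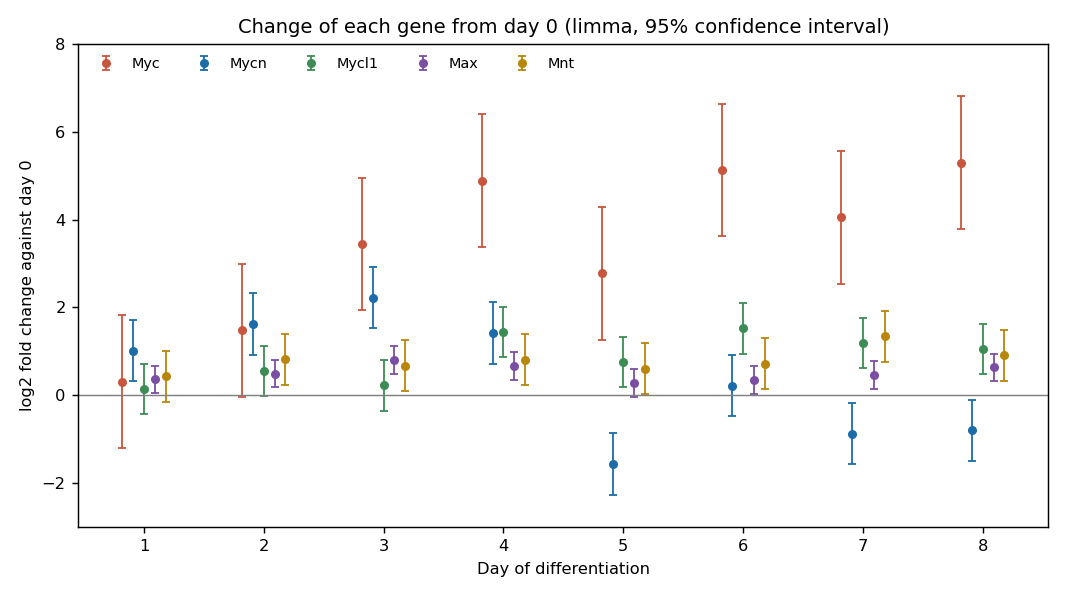
log2 fold change against day 0 (vertical axis) on days 1 to 8 (horizontal axis) for the 5 genes, from limma over all 36 libraries, with 95% confidence intervals as bars. Myc stands highest from day 3 on, at 5.30 on day 8, and Mycn crosses from 1.41 on day 4 to -1.56 on day 5.

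Counted by day, 1 of the 5 members was called on day 2 (2.96% of all genes tested were called in either direction), 2 on day 3 (8.89%) and 3 on day 4 (18.6%). For days 5, 6, 7 and 8 the counts were 2 (26.8%), 2 (33.4%), 3 (35.4%) and 2 (35%). On day 1 it was 0 in limma, where Mycn (log2 fold change 1.01, unadjusted p = 0.00602) and Max (0.36, 0.0269) had unadjusted p under 0.05 and 0.0684% of all genes were called. Without the X14 libraries of day 0 the counts were 4 on day 3, 4 on day 4 and 3 on day 8. On other days the members that gained a call were Mycn on day 1, Mycl1 on days 2 and 5, and Mnt on days 1, 2, 5 and 6. Counts without these libraries, here and for the lists below, are given without a share of all genes called under that setting. Between day 4 and day 5, 2 members were called lower (5.78% of all genes), Myc and Mycn. Between day 3 and day 4, 1 was called higher (Mycl1, 3.33%), between day 5 and day 6, 2 were (Myc and Mycn, 7.14%), and between day 4 and day 8, 1 was called lower (Mycn, 9.01%). Over the whole course all 5 members passed the F test at an adjusted p under 0.05, as did 65.2% of all genes. Fold changes on day 8 are read against a median of 0.23 over all genes, which was 0.02 under 75th percentile scaling and -0.09 under quantile normalization.

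To compare levels between genes, RPM were divided by exon length in kilobases (RPKM). The lengths were inferred as those under which the deposited values give whole reads. They were 2717 bases for Myc, 3292 for Mycn, 4038 for Mycl1, 2005 for Max and 4627 for Mnt. GENCODE M21 gives Max 3598 bases, which would place it lower. On day 0 the order was Max (27.1 RPKM), Mycn (21.6), Mnt (6.70), Mycl1 (6.31) and Myc (0.213), where Max and Mycn overlapped and so did Mnt and Mycl1. On day 3 Mycn stood first at 98.1 RPKM, with its lowest library at 72.9 above the highest Max library at 48.6. On day 8 Max led at 41.5 RPKM. Myc (14.7), Mycl1 (12.7), Mycn (12.4) and Mnt (12.2) followed, each overlapping its neighbour.

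The summed RPKM of the 3 paralogues was 28.1 ± 10.8 (SD, n = 4) on day 0 and 110 ± 31.9 on day 3. The following means were 83.4 ± 23.3 (day 4), 21.6 ± 9.13 (day 5) and 39.8 ± 8.56 (day 8). On days 2, 3, 4 and 6 the sum lay above day 0 in every library, with an exact two-sided permutation p of 0.0286, the smallest that 4 against 4 libraries allow, and 0.0571 after adjustment over 8 days, which did not pass. On day 8 the exact permutation p was 0.171 (0.229 adjusted).

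The make-up of the sum moved from Mycn to a mix. Mycn made up 76.8% ± 4.91 (SD, n = 4) of the sum in 2i and 88.9% ± 0.539 at its peak on day 3. This had become 35.8% ± 8.52 by day 5 and 30.9% ± 9.55 by day 8. Myc made up 0.636% ± 1.02 in 2i, 13.2% ± 6.68 on day 4 and 36.8% ± 17.7 by day 8, when individual libraries lay between 13.9% and 54.4%. The share of Myc lay above day 0 in every library of days 4, 6, 7 and 8, with the smallest exact permutation p of 0.0286 (0.0571 adjusted), which did not pass. For Mycl1 the shares on days 0, 3, 5 and 8 were 22.6%, 6.85%, 52.8% and 32.4%.

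**Figure D3:**
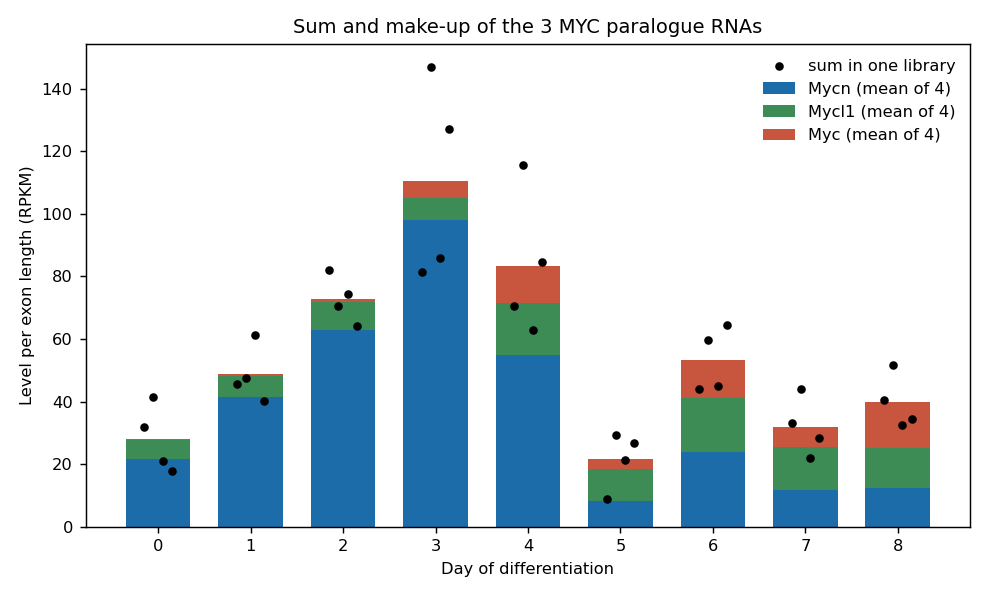
Summed level of Mycn, Mycl1 and Myc in RPKM (vertical axis) by day (horizontal axis). Coloured bars are means of 4 libraries and each black point is the sum in a single library. The sum rises from 28.1 on day 0 to 110 on day 3, nearly all Mycn, and on day 8 the 3 genes have similar heights.

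Marker lists of other cell types changed over the same days. The trophoblast list (Cdx2, Eomes, Krt8, Krt18) summed to 3.08 to 13.9 RPM on day 0, with all 4 detected, and to 2034 to 4407 RPM on day 8, mostly from the epithelial keratins Krt8 and Krt18, while Cdx2 had a mean of 7.48 RPM. The mesoderm list (T, Mesp1, Hand1) summed to 0 to 0.926 RPM on day 0, with 1 of 3 detected and Mesp1 and Hand1 at 0, and to 88.0 to 218 RPM on day 8, with 3 of 3 detected. The fibroblast list (Col1a1, Col1a2, Col3a1, Thy1) rose from a mean sum of 3.59 to 49.1 RPM, but its genes differed. Most of the rise was Col1a2 (0 to 34.4 RPM) and Col1a1 (1.85 to 12.9 RPM). Thy1 had means of 1.74, 29.4 and 1.19 RPM for days 0, 5 and 8, and Col3a1 reached 0.616 RPM. The neural list went from 99.0 to 26.2 RPM. Extraembryonic endoderm markers stayed at a mean of 3.42 RPM on day 8, with Afp and Ttr at 0. The part of these cells in the levels of the members was not tested, and in bulk samples fewer cells of a type and less RNA per cell cannot be told apart.

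Libraries labelled double and single were compared over days 1 to 8, with day and line in the fit. In limma 0 of the 5 members were called (4.54% of all genes were), and 3 members had an adjusted p under 0.05 with a difference under 2-fold, against 22.6% of all genes. Myc was lower in double libraries at a log2 difference of -0.99 (adjusted p = 0.0282, limma), in 11 of 16 same-day pairs. Without either X18 culture it was -1.53 and called, and without either X14 culture -0.45. Mycn was lower at -0.53 (adjusted p = 0.0059), in 12 of 16 pairs. Max was higher by 0.17 (0.0427), in 13 of 16 pairs. For Mycl1 and Mnt the differences were -0.15 (95% confidence interval -0.41 to 0.11) and 0.10 (-0.15 to 0.35).

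The difference in Myc lay in the earlier days. On days 1 to 4 Myc was called lower in double libraries (log2 difference -1.61, adjusted p = 0.00963, limma; 3.76% of all genes were called lower), in 7 of 8 pairs. The pairs of days 1 and 2 rest on few reads. Double against single, day 1 held 1 against 4 reads in X14 and 1 against 0 in X18. Day 2 held 9 against 8 reads in X14 and 0 against 2 in X18. On day 3 the double libraries held 2.67 RPM in X14 and 5.19 RPM in X18, and the single ones 23.1 and 26.3 RPM. State markers moved with the label on these days. The primed sum on day 3 was 529 and 519 RPM in the double libraries of X14 and X18 and 1212 and 939 RPM in the single ones, and the naive sum was 3337 and 3549 RPM against 2292 and 2438 RPM. Their part in the difference of Myc was not tested. On days 5 to 8 the difference was -0.36 (adjusted p = 0.67), with 4 of 8 pairs each way, and on days 7 and 8 the double libraries were the higher in both lines. Without day 5 replicate 1 the difference of days 5 to 8 was 0.096 (adjusted p = 0.882, limma). The change of the label difference between the stages was 1.25 and did not pass (adjusted p = 0.274, limma). Without day 5 replicate 1 it was 1.71 and passed (0.0234).

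For Mycn the larger difference was that of the later days. On days 1 to 4 the log2 difference was -0.14 (adjusted p = 0.666, limma), with 4 of 8 pairs each way. These pairs were split by day, in both lines. The double library was higher on days 1 and 2, and the single library, as for Myc, on days 3 and 4. On days 5 to 8 it was -0.93 (0.000342), just under 2-fold, and the single library was higher in all 8 pairs. On those days the double libraries averaged 34.8 RPM and the single ones 57.8 RPM. The change between stages was -0.79 (adjusted p = 0.0505, limma) and did not pass.

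Max was higher in the double library in all 8 pairs of days 5 to 8, by 0.30 on the log2 scale (adjusted p = 0.01, limma), at means of 80.0 and 65.1 RPM. Of all genes 15% had an adjusted p under 0.05 in this comparison. Mycl1 was higher in the single library in 7 of 8 of these pairs (-0.45, adjusted p = 0.0623) and Mnt in the double library in 7 of 8 (0.32, 0.211), and neither passed. Without day 5 replicate 1 the difference of Mnt was 0.48, with an adjusted p of 0.0158 (limma), still under 2-fold. Each label is 2 cultures, so a difference between labels and a difference between cultures cannot be told apart beyond these pairs.

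**Figure D4:**
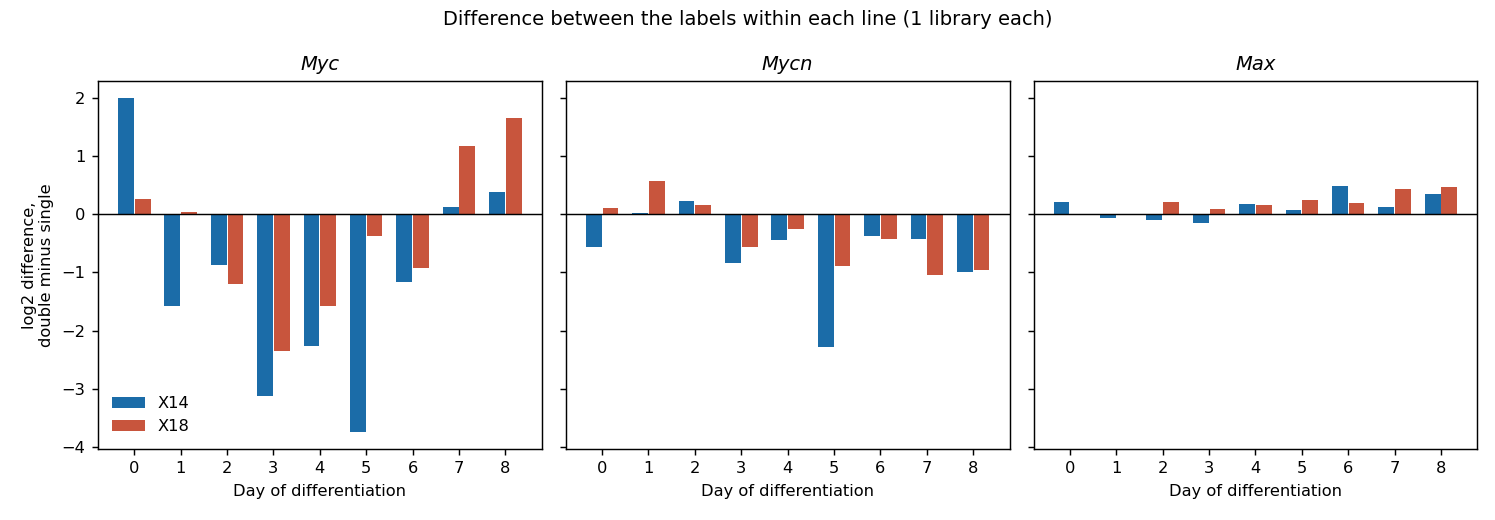
log2 difference between the double and the single library of the same line and day (vertical axis) by day (horizontal axis) for Myc, Mycn and Max, with X14 in blue and X18 in red. Each bar is a pair of libraries and carries no error. Myc bars reach -3.11 in X14 and -2.34 in X18 on day 3 and are positive on days 7 and 8, and Mycn bars are negative in both lines from day 3 on.

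Line X18 did not differ from line X14 in any member at an adjusted p under 0.05 (0 of 5 in limma, 0 also at an unadjusted p under 0.05; 0.0137% of all genes were called). The largest difference was that of Myc, at -0.43 (95% confidence interval -1.10 to 0.24).

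The genes that MYC proteins activate were followed with a list of 40 growth genes of ribosome assembly, nucleotide, polyamine and one-carbon metabolism and the cell cycle. On day 3, the day of the Mycn peak, 33 of 40 had a positive log2 fold change, with a median of 0.45 against 0.04 for all genes, and 4 were called higher (5.72% of all genes were) and 0 lower. From day 4 to day 5, 38 of 40 were negative, with a median of -0.78 against -0.02, and 12 were called lower (5.78% of all genes) and 0 higher. On day 8, 35 of 40 were below day 0, with a median of -0.58 against 0.23, and 7 were called lower (11.1% of all genes) and 1 higher (23.9%). Without the X14 libraries of day 0 the calls on day 3 were 13 higher and 1 lower and those on day 8 were 1 higher and 11 lower. The counts by sign were weaker in that setting. On day 3, 29 of 40 were positive (median 0.56 against 0.16), and on day 8, 28 of 40 were below day 0 (median -0.46 against 0.39). Under 75th percentile scaling 12 were called lower on day 8 and 38 of 40 were below day 0. From day 4 to day 8 all 40 were lower in value, with 15 called (9.01% of all genes) and a median of -0.84 against 0.10.

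**Figure D5:**
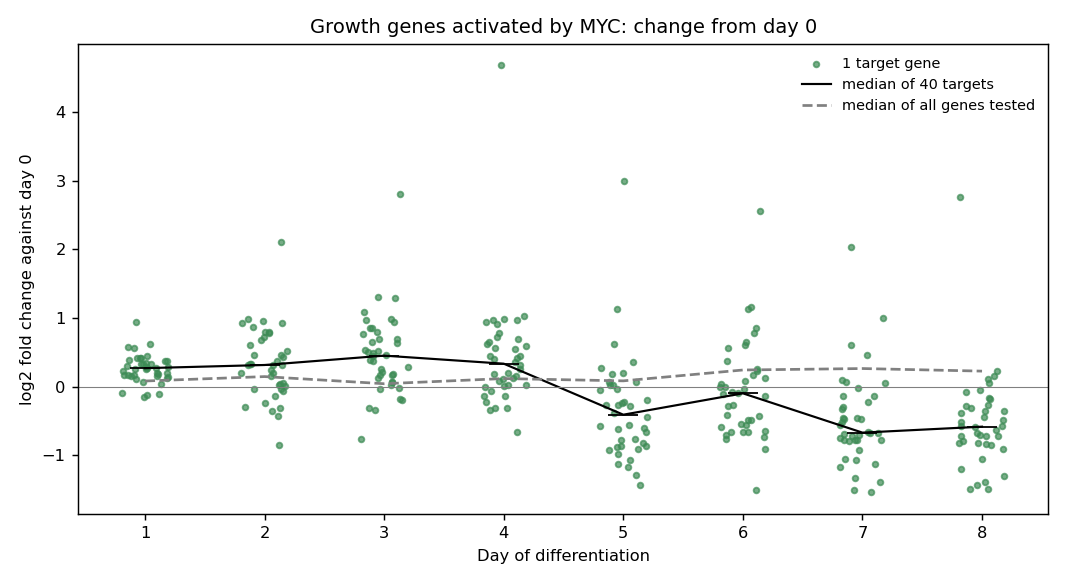
log2 fold change against day 0 (vertical axis) of the 40 growth genes, each a green point, on days 1 to 8 (horizontal axis, points spread sideways for sight). The black line is the median of the 40 and the dashed line that of all 14612 genes, and the black line goes from 0.45 on day 3 to -0.41 on day 5 and -0.58 on day 8.

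Ccnd2, a D-type cyclin, was the only growth gene called higher on day 8 (log2 fold change 2.75, adjusted p = 7.66e-05, limma). Its means for days 0, 4 and 8 were 1.16, 35.9 and 11.2 RPM. From pooled reads, 10 on day 0 and 79 on day 8, the ratio was 8.55 with a 95% counting interval of 4.41 to 18.5. The largest falls were those of Shmt2, the mitochondrial serine hydroxymethyltransferase, from 297 to 105 RPM (-1.49, 5.23e-06), and Rrp9, a component of the U3 small nucleolar RNP, from 104 to 38.1 RPM (-1.49, 3.96e-07). Shmt2 also fell between day 4 (386 RPM) and day 5 (120 RPM), by 1.73 (adjusted p = 5.67e-06, limma). In double libraries of days 5 to 8, 38 of 40 growth genes had lower values than in single libraries, with a median of -0.33 against -0.04, and none was called (18 had an adjusted p under 0.05, all lower, against 7.44% of all genes). Marker sums also differed by label on these days. On day 8 the trophoblast sum was 3150 and 4407 RPM in the double libraries of X14 and X18 and 2034 and 2365 RPM in the single ones. The primed sum was 224 and 217 RPM in the double and 585 and 446 RPM in the single libraries. Their part in the levels of the growth genes and of Myc, Mycn and Max was not tested.

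CACGTG was found in the promoters of 11 of the 32 growth genes in the RefSeq table, or 34.38%, beside 8.093% of all genes in it. A stretch of 5 of them is shown to place the motif, in capitals, in genes that carry it a single time. Nop2 (chr6:125131811-125131840, plus strand, motif at -60) and Pes1 (chr11:3963965-3963994, plus strand, 3) act in ribosome assembly. Wdr43 (chr17:71616220-71616249, plus strand, 18) does too. Hspd1 (chr1:55088306-55088335, minus strand, -80) encodes the mitochondrial chaperonin and Phb (chr11:95666713-95666742, plus strand, -232) prohibitin. Positions are those of the first base of the motif relative to the gene start.
Nop2: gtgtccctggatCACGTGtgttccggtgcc
Pes1: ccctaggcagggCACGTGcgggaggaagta
Wdr43: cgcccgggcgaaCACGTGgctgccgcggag
Hspd1: ggccggctgggaCACGTGaaaaggccgcgc
Phb: ttgaggaataggCACGTGcatatattacca

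From day 4 to day 5 all 11 growth genes with the motif had lower values. Their median was -0.79, against -0.78 for the 40 and -0.02 for all genes. Among all 40, 12 were called lower (5.78% of all genes were), and among the 11 with the motif 3 were. These were Apex1, a DNA repair endonuclease, Hspd1 and Phb, the last 2 at -1.65 and -1.29 (adjusted p = 4.8e-06 and 0.000607, limma). Hspd1 went from 660 to 211 RPM and Phb from 45.5 to 19.6 RPM. The values of Nop2 (-0.88), Pes1 (-0.24) and Wdr43 (-0.29) were under the fold limit.

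Of 8 genes known to be repressed by MYC, 4 were called higher (23.9% of all genes) and 0 lower (11.1%) on day 8, with a median of 1.43 against 0.23 for all genes. The list did not move as a whole, with 5 genes above day 0 and 3 below. Mean levels were lower on day 8 for Cdkn1a (180 to 121 RPM), Gadd45a (29.6 to 23.5 RPM) and Ndrg2 (11.99 to 10.28 RPM). Under 75th percentile scaling and under quantile normalization 3 were called higher and 0 lower. Thbs1, encoding thrombospondin, had 0 reads on day 0 and a mean of 85.3 RPM on day 8, at least 27.7-fold higher than the highest 3-read floor of a day 0 library. With Thbs1 at this bound the median was also 1.43. Ndrg1, a stress-response gene, rose from 18.03 to 497 RPM (4.87, adjusted p = 2.29e-10, limma).

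Among the other MAX and MLX partners, 3 of 8 were called higher (23.9% of all genes) and 1 lower (11.1%, much the same share) on day 8, with a median of 0.15 against 0.23. Mxd4, a repressor that dimerises with MAX, had 3 reads over the day 0 libraries and 227 over those of day 8, a ratio of 81.9 with a 95% counting interval of 27.7 to 400.1. Mlxip, a partner of MLX, rose from 12.3 to 83.1 RPM (3.19, adjusted p = 7.21e-06, limma), and Mlxipl, a glucose-responsive partner of MLX, fell from 6.45 to 1.88 RPM (-1.85, 0.0256). In double libraries of days 5 to 8 Mxd4 was the only gene of this list called, at 1.79 above the single libraries on the log2 scale (adjusted p = 0.00068, limma; 4.01% of all genes were called higher). Mxd4 was also the only 1 of the 3 with CACGTG in its promoter that was called higher on day 8, and Mlx and Mlxipl were the others.

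Among 8 SIN3 corepressor genes, 2 were called higher, close to the 23.9% of all genes, and 3 lower (11.1% of all genes) on day 8. Their median log2 fold change was -0.086 against 0.23. The scaffold Sin3b rose from 160 to 666 RPM (1.99, adjusted p = 5.19e-07, limma) and the histone chaperone Rbbp7, an X-linked gene, from 350 to 1418 RPM (1.99, 6.76e-06). The SIN3 subunit Sap30 fell from 111 to 26.6 RPM (-2.10, 4.39e-09) and Rbbp4 from 1143 to 557 RPM (-1.04, 0.000125).

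Of 12 coactivators and partners of MYC, 1 was called higher and 2 lower on day 8, with a median of 0.35 against 0.23 for all genes. The higher count was below the 23.9% of all genes and the lower count near the 11.1%. Trrap, the scaffold of histone acetyltransferase complexes, rose from 59.4 ± 52.0 to 169 ± 102 RPM (SD, n = 4; log2 fold change 1.71, adjusted p = 0.0034, limma). Actl6a, an actin-related subunit of such complexes, fell from 423 to 118 RPM (-1.82, 2.93e-10), and Wdr5, which helps to bring MYC to chromatin, from 366 to 165 RPM (-1.11, 7.79e-07). Without the X14 libraries of day 0 the counts of this list were 4 higher and 1 lower.

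Of 12 genes of MYC protein turnover, 2 were called higher and 1 lower on day 8, neither above the share of all genes (23.9% and 11.1%), with a median of 0.036 against 0.23. Without the X14 libraries of day 0 the counts of this list were 3 higher and 1 lower. The ubiquitin ligase Trim32 rose from 13.5 to 41.3 RPM (2.02, adjusted p = 0.00536, limma) and the kinase Gsk3b, which is the target of a 2i inhibitor and phosphorylates MYC, from 40.7 to 90.0 RPM (1.27, 0.00714). The deubiquitinase Usp28 fell from 143 to 62.2 RPM on day 8 (-1.19, 1.45e-05), after it had been called higher on day 4, at 365 RPM (1.37, 4.35e-06).

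The genes most like each member over the 36 libraries were found by Pearson correlation of log2 values among 9402 genes averaging 10 RPM or more. These are descriptions with no test, and the points share days, cultures and library depth. Closest to Myc were Sox4 (0.92), Flnc (0.90) and Unc5b (0.90), and closest to Mycn were Srrt (0.95), Ddx39b (0.94) and Nup93 (0.93). Srrt, like Mycn, had its highest mean on day 3 (366 RPM) and its lowest on day 5 (108 RPM). Closest to Mycl1 were Rragd (0.87), Col18a1 (0.86) and Atp10a (0.85), to Max Daxx (0.79), Ehmt2 (0.78) and Hdac6 (0.78), and to Mnt Foxo3 (0.89), Ranbp10 (0.85) and D17Wsu92e (0.85).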

How the data were processed

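RNA-seq was made from 36 harvests, taken here as 4 cultures with 1 harvest of each on each of 9 days. Per the study's methods, 75 bp single-end reads were trimmed, aligned to mm10 and quantified in SeqMonk. The submitters' processing notes name bcl2fastq and TopHat2 2.0.12, and whether counting used strand is not given in the sources used here. The values deposited by the authors are log2 RPKM, although the table is called log CPM, and a gene without reads carries 0.9 read. Whole reads were recovered for 100% of genes (tolerance 0.01), and RPM were computed from them. For each gene this used an inferred exon length that made all its values whole reads or the 0.9 read. All 36 value columns were mapped.

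Genes with at least 1 RPM in at least 4 libraries (14612 of 25965) were tested two-sided with limma 3.58.1 (trend) in R 4.3.3 on the deposited values, day being the only factor, or day, line and label over days 1 to 8. The script was tested on simulated data. Calls needed an adjusted p under 0.05 over all genes and a log2 fold change of at least 1. Paralogue sums were compared by exact permutation (scipy 1.17.1).

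Same-numbered libraries come from the same line and label, so numbers pair the samples. Deviations from day means of such libraries had a median correlation of 0.25 (lowest -0.73, 113 of 144 pairs over 0.1), against -0.13 for other numbers. Alternatives were other scalings, filters, a pseudocount, voom, a replicate block and leaving out libraries. Members and lists were chosen with earlier results of these data known, the lists from knowledge of the MYC network, and leaving out day 5 replicate 1 was chosen after seeing the data. Named list genes are the largest 2 rises and 2 falls to day 8 among called genes. Apex1, Hspd1, Phb, Nop2, Pes1 and Wdr43 were named for their promoters. Cdkn1a, Gadd45a and Ndrg2 were named for their lower means on day 8.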

Additional observations from a re-analysis of the deposited data

Results flagged for a closer look

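Of 63 groups of 4 libraries checked (5 genes and 2 paralogue measures on 9 days), 1 had a library far from the other 3. On day 3 Mycl1 stood at 21.5 RPM in X18 single and at 30.2 to 30.7 RPM in the other libraries, a gap of 0.947 of the whole range, above Dixon's critical value. Chance flags about 1 in 20 such groups.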

How the results depend on the processing

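The rises of Myc to days 4 and 8, of Mycn to day 3 and of Mycl1 to day 4, and the fall of Mycn from day 4 to day 5, kept their direction and call under all alternatives run. The paralogue sum and Myc share of days 4 and 8 kept their direction, none past the threshold after adjustment. Without a replicate the smallest exact permutation p of 3 against 3 libraries is 0.1, so no call could be kept there. Those values and the paired sign flips were judged by direction and size. Among values recomputed for the day 4, day 5, day 8 and label comparisons and paralogue measures, 361 were kept. Of the rest 8 reversed direction, 10 gained a call, 15 lost a call and 16 moved. For the day 3 and line comparisons 142 were kept, 9 reversed, 2 gained a call, 1 lost a call and 2 moved. Kept means the same direction and side of the threshold, apart from the paralogue values judged by size. A count of members called was kept when close to the main count. For the values below, the cause was not tested unless stated.

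The step of Myc from day 4 to day 5 lost its call without a filter (-2.11, adjusted p = 0.0541, limma), under 75th percentile scaling (-2.01, 0.0533), with voom (-2.04, 0.0611), in a fit of only the 2 days (-2.11, 0.0892) and without day 5 replicate 1 (-1.32, 0.234), which leaves 1 member called. Without each replicate in turn it was -2.51 to -1.67, again with 1 member called. Mycl1 on day 8 lost its call under 75th percentile scaling (0.85), quantile normalization (0.66), voom (0.94) and in the fit of the 2 days (1.06, adjusted p = 0.0519), the last 2 with 1 member called. Mycn on day 8 gained a call under 75th percentile scaling (-1.01) and quantile normalization (-1.04). Without the X14 libraries of day 0 Mnt gained calls on day 3 (1.25), day 4 (1.38) and day 8 (1.48), and Max on day 3 (1.07), so 4 members were called on day 3.

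With replicates left out in turn, Myc on day 3 was 2.70 to 4.41 (1 to 2 members called), Mycn on day 4 1.26 to 1.52, Mnt on day 4 0.609 to 1.002, and Mnt from day 4 to day 5 -0.39 to 0.055 (0.0002 without day 5 replicate 1). On day 8 Mycl1 was 0.68 to 1.38 and Mnt 0.80 to 1.04, with 1 to 3 members called. For double against single, Myc was -1.53 to -0.45, Mycl1 -0.37 to 0.074 and Mnt -0.055 to 0.26, with 0 to 1 member called. For X18 against X14, Myc was -0.97 to 0.11, Mycn -0.20 to 0.013, Mycl1 -0.27 to 0.17 and Mnt -0.28 to 0.032. On days 1 to 4 the label differences were -1.61 for Myc (1 member called), 0.15 for Mycl1 and -0.12 for Mnt, and the line difference of Mycl1 on days 5 to 8 was 0.077. The change of the Myc label difference between stages was 1.71 and passed without day 5 replicate 1 (1 member called), and 1.05 to 1.46 without a replicate.

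The replicate block, under which Myc on day 8 was 5.30 (adjusted p = 1.51e-07, limma) and Mycn from day 4 to day 5 was -2.98 (3.69e-08), changed no call among the values recomputed. For the paralogue sum and share, paired sign flips of 4 cultures are too few to pass. Depth limits Myc up to day 2, where no library had more than 9 reads.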
